A study of Homo sapiens with 16 samples.

Results

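The genes of MHC class I antigen presentation were followed by gene name through the 12 in vitro RNA-seq libraries of 2 AML cell lines. They comprise 9 of the 60357 genes listed: the heavy chain genes HLA-B, HLA-C, HLA-E and HLA-F, the light chain gene B2M, the peptide transporter genes TAP1 and TAP2, the loading factor gene TAPBP and the regulator gene NLRC5. Kasumi-1 and SKNO-1 are human myeloid leukaemia lines with the t(8;21) translocation and its fusion gene RUNX1/ETO, whose transcript is counted in part under RUNX1T1. Cells of each line received lipid nanoparticles (LNPs) at 2 µg/ml for 24 h, were washed, and were harvested on day 3. LNP/siRE-mod carries a chemically modified siRNA against the fusion site and is given by the labels as RUNX1/ETO knockdown, whereas LNP/siMM-mod carries a modified mismatch control and is given as WT. There were 3 libraries in each of the 4 labelled groups, all of LNP-treated cells, and both lines were grown in RPMI with serum, with GM-CSF added for SKNO-1 alone. Each line is 1 cell line, and nothing states that the libraries of a group came from separate cultures, so that p-values measure the spread between these libraries, which may be technical.

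MHC class I molecules display peptides from the cytosol on the cell surface to CD8 T cells, and are also read by NK cells. The proteasome cuts proteins into peptides, the TAP1 and TAP2 proteins together pump them into the endoplasmic reticulum, and tapasin, the product of TAPBP, holds empty heavy chains next to the pump until a peptide has been loaded. A heavy chain reaches the surface with beta-2-microglobulin, the product of B2M. Interferons raise most of these genes, and NLRC5 is the transactivator of class I genes, which acts through a conserved group of promoter boxes bound by RFX, CREB and NF-Y proteins. Low class I expression is known as a route by which leukaemia cells can escape T cells.

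In the build of the files, GRCh38, 7 of the members lie in the MHC region of chromosome 6: HLA-F at chr6:29722775-29738528 and HLA-E at chr6:30489509-30494194 on the plus strand, and HLA-C at chr6:31268749-31272130, HLA-B at chr6:31269491-31357188, TAP2 at chr6:32821833-32838770, TAP1 at chr6:32845209-32853978 and TAPBP at chr6:33299694-33314387 on the minus strand. B2M lies at chr15:44711487-44718877 and NLRC5 at chr16:56989485-57083531, both on the plus strand. These spans are those of the counted exons.

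The promoters of 4 members are shown because the results below turn on them: B2M and TAP1 differed between libraries in one direction and TAP2 in the other, and HLA-B represents the heavy chains. Each run is the RefSeq sequence of GRCh38.p14 from 250 bases before to 50 bases after a RefSeq start of the gene, 5′ to 3′ on the strand of the gene. RefSeq starts can differ from the counted spans given above, and the window of TAP1 lies wholly within its counted span. Capitals mark every match to 5 motifs on either strand: the interferon-stimulated response element (ISRE) as GAAANNGAA, the Y box of NF-Y as CCAAT, the core of the CRE as TGACG, a RUNX site as TGTGGT and an NF-kB site as GGGANTNCC.
HLA-B, chr6:31357130-31357429, minus strand: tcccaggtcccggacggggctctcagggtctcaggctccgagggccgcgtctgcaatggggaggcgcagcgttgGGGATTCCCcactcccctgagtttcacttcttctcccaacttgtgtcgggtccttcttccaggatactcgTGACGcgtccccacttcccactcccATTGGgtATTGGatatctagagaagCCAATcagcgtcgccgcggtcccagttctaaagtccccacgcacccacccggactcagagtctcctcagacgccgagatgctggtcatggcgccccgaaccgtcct
B2M, chr15:44711267-44711566, plus strand: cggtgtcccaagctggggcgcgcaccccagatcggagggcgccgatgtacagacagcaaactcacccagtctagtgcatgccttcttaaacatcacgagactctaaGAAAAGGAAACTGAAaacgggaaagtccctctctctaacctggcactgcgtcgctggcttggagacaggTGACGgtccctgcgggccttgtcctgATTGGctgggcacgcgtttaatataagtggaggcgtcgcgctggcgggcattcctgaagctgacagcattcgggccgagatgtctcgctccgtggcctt
TAP1, chr6:32853655-32853954, minus strand: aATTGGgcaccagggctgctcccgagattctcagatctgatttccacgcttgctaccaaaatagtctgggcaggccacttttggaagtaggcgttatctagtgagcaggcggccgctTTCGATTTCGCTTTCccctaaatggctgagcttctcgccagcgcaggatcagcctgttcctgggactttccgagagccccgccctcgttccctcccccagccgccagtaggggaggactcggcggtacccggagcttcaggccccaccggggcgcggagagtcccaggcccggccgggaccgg
TAP2, chr6:32838690-32838989, minus strand: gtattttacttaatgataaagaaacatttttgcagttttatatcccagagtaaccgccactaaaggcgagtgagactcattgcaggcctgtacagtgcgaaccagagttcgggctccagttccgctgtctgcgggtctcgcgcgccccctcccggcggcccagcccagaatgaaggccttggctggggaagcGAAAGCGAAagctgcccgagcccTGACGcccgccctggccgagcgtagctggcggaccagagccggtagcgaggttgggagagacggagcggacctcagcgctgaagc

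HLA-B held 3 Y boxes, of which the one on the strand of the gene starts 56 bases before the start of the gene, a CRE core 106 bases before it and an NF-kB match 176 bases before it that reads on both strands. B2M held a pair of ISRE matches that overlap, 144 and 138 bases before the start, with a CRE core 75 bases and a Y box 49 bases before it. TAP1 held a Y box 249 bases before the start and also a pair of overlapping ISRE matches on the opposite strand, 133 and 127 bases before it, and its window shared 13 bases with that of PSMB9, an immunoproteasome gene that is read in the other direction. TAP2 held 1 ISRE match, 58 bases before the start, and a CRE core 35 bases before it. Windows were found for 7 members, with a second window for TAP1 that held none of the 5 motifs. Neither HLA-E nor NLRC5 was matched to a window. Among the others, HLA-C held 4 Y boxes and 1 CRE core, HLA-F held 2 Y boxes and 1 ISRE match, and TAPBP held 2 overlapping ISRE matches and 1 NF-kB match. None of the windows of the members held a RUNX match. Of 34943 windows of the same length in RefSeq, 8.1% held an ISRE match, 34.6% a Y box, 24.5% a CRE core, 13.1% a RUNX match and 4.36% an NF-kB match. These matches describe letters only, and no binding was measured here. Sites that differ from the 5 patterns in a letter or in length were not marked, so a window without a match may still hold such a site.

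Libraries held between 60559466 and 147990959 counts on genes (median 89160101). Values for single libraries are CPM, counts scaled to the size of the library, after TMM, a normalization that sets the bulk of genes level across the 12 libraries. The siRNA labels cross 2 expression sets, so the libraries were also read by CD34, a stem and progenitor surface marker, and then by RUNX1T1. CD34 was at least 117.0 CPM in 6 libraries and at most 0.625 CPM in the other 6, and the latter, called CD34-silent here, were the only ones with IL5RA, an interleukin receptor gene, above 1 CPM (36.2 to 67.8 CPM). Within the CD34-expressing libraries RUNX1T1 divided into 296.1 to 328.6 CPM and 92.7 to 126.9 CPM, and within the CD34-silent libraries into 158.8 to 164.1 CPM and 37.2 to 44.3 CPM. These 4 sets of 3 libraries were defined from the data and are not the groups of the study, so ranges and overlap are given for them without a test.

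The CD34-expressing, RUNX1T1-high set comprises the libraries labelled SKNO-1 siMM-mod 1 and 2 and Kasumi-1 siMM-mod 1. The CD34-expressing, RUNX1T1-low set comprises SKNO-1 siMM-mod 3, SKNO-1 siRE-mod 1 and Kasumi-1 siMM-mod 2. The CD34-silent, RUNX1T1-high set comprises SKNO-1 siRE-mod 2, Kasumi-1 siMM-mod 3 and Kasumi-1 siRE-mod 2, and the CD34-silent, RUNX1T1-low set Kasumi-1 siRE-mod 1, SKNO-1 siRE-mod 3 and Kasumi-1 siRE-mod 3. Each labelled line thus holds libraries of both CD34 sets, and RUNX1T1, the gene that checks the knockdown, did not separate the siRNA labels in either line. Whether a label matches its library cannot be settled from these data, and every fold change by label and every difference between lines given below compares libraries as labelled. RUNX1T1 was at 296.1, 92.7 and 160.7 CPM in the libraries labelled Kasumi-1 siMM-mod 1 to 3 and at 44.3, 158.8 and 37.2 CPM in those labelled siRE-mod 1 to 3. In SKNO-1 it was at 328.6, 297.1 and 126.9 CPM in the libraries labelled siMM-mod and at 123.5, 164.1 and 40.3 CPM in those labelled siRE-mod. Log2 CPM over all genes correlated with r of 0.979 to 0.998 between libraries of the same set and 0.875 to 0.997 between libraries of the same labelled group. The 7 myeloid blast markers were all detected and summed to 12338.9 to 26738.7 CPM in the CD34-expressing and 2255.5 to 6631.3 CPM in the CD34-silent libraries, with MPO at 10411.8 to 22611.0 and 1778.3 to 5735.9 CPM. CD33, SPI1 and CEBPA overlapped between the CD34 sets. The 4 markers of B cells also divided by CD34 in their sum, at 8.26 to 14.4 and 2.84 to 4.99 CPM. PAX5 made up 6.83 to 11.2 and 1.67 to 2.51 CPM of it. CD79A overlapped (0.907 to 2.9 and 0.907 to 2.46 CPM), and MS4A1 was at 0 counts in every library. The 6 markers of T and NK cells divided by RUNX1T1 instead in their sum. They summed to 9.93 to 19.6 CPM in the RUNX1T1-low and 0.404 to 0.841 CPM in the RUNX1T1-high libraries of the CD34-expressing set, and to 3.27 to 3.81 and 0.369 to 0.508 CPM in those of the CD34-silent set. NKG7, a granule membrane protein gene, gave nearly all of the sum in the RUNX1T1-low libraries (9.79 to 19.4 and 3.21 to 3.76 CPM). It divided by RUNX1T1 itself, at 0.332 to 0.527 and 0.298 to 0.476 CPM in the RUNX1T1-high libraries. In the CD34-expressing set, CD3D was at 5 to 18 counts where RUNX1T1 was high and at 0 where it was low. CD3E had the opposite order there, at 0 to 4 and 9 to 27 counts. Both were at no more than 3 counts in the CD34-silent libraries. CD2, KLRD1 and GNLY were at no more than 8 counts in any library. Markers of stromal cells summed to 0.832 to 1.28 CPM in the CD34-silent, RUNX1T1-high libraries and 0.191 to 0.459 CPM in the others. PDGFRB gave most of the former sum (0.77 to 1.23 CPM). COL1A1 was at 0 counts in every CD34-silent library and COL3A1 at 0 counts in every CD34-expressing one. THY1 overlapped between the CD34 sets (0.0721 to 0.156 and 0.0313 to 0.0821 CPM). None of the stromal markers reached the minimum of reads given below. In such bulk libraries, fewer cells of a type and less RNA per cell cannot be told apart.

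Of the 9 genes, 8 reached the minimum used throughout, 600 reads summed over the 12 libraries, as did 15863 genes in all. HLA-F, a non-classical heavy chain, was the exception. It had 1 read in each of 3 libraries, labelled Kasumi-1 siMM-mod 1, SKNO-1 siMM-mod 3 and Kasumi-1 siMM-mod 2, and 0 counts in the other 9. A count of 0 allows up to 3 counts, or 0.0195 to 0.0469 CPM depending on the library, so that no difference in HLA-F was detectable at this depth. All other members were detected in every library.

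Per kilobase of counted exon, the light chain led the 9 members. It did not lead the pathway, since the chaperone gene CALR was at 782.2 to 2911.1 CPM per kilobase. Among the members, B2M was at 47.8 to 208.7 CPM per kilobase and was the highest of the 9 in each of the 12 libraries. HLA-E followed at 16 to 58.5, TAPBP at 14.8 to 27.8, HLA-B at 9.39 to 25.8 and HLA-C at 7.25 to 16.2 CPM per kilobase, each range overlapping the next. NLRC5 (0.658 to 1.41), TAP1 (0.173 to 1.13) and TAP2 (0.172 to 0.684 CPM per kilobase) lay far lower and also overlapped each other, and HLA-F was lowest in every library. The transporter genes were thus at a small fraction of the level of the light chain in these cells.

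**Figure D1:**
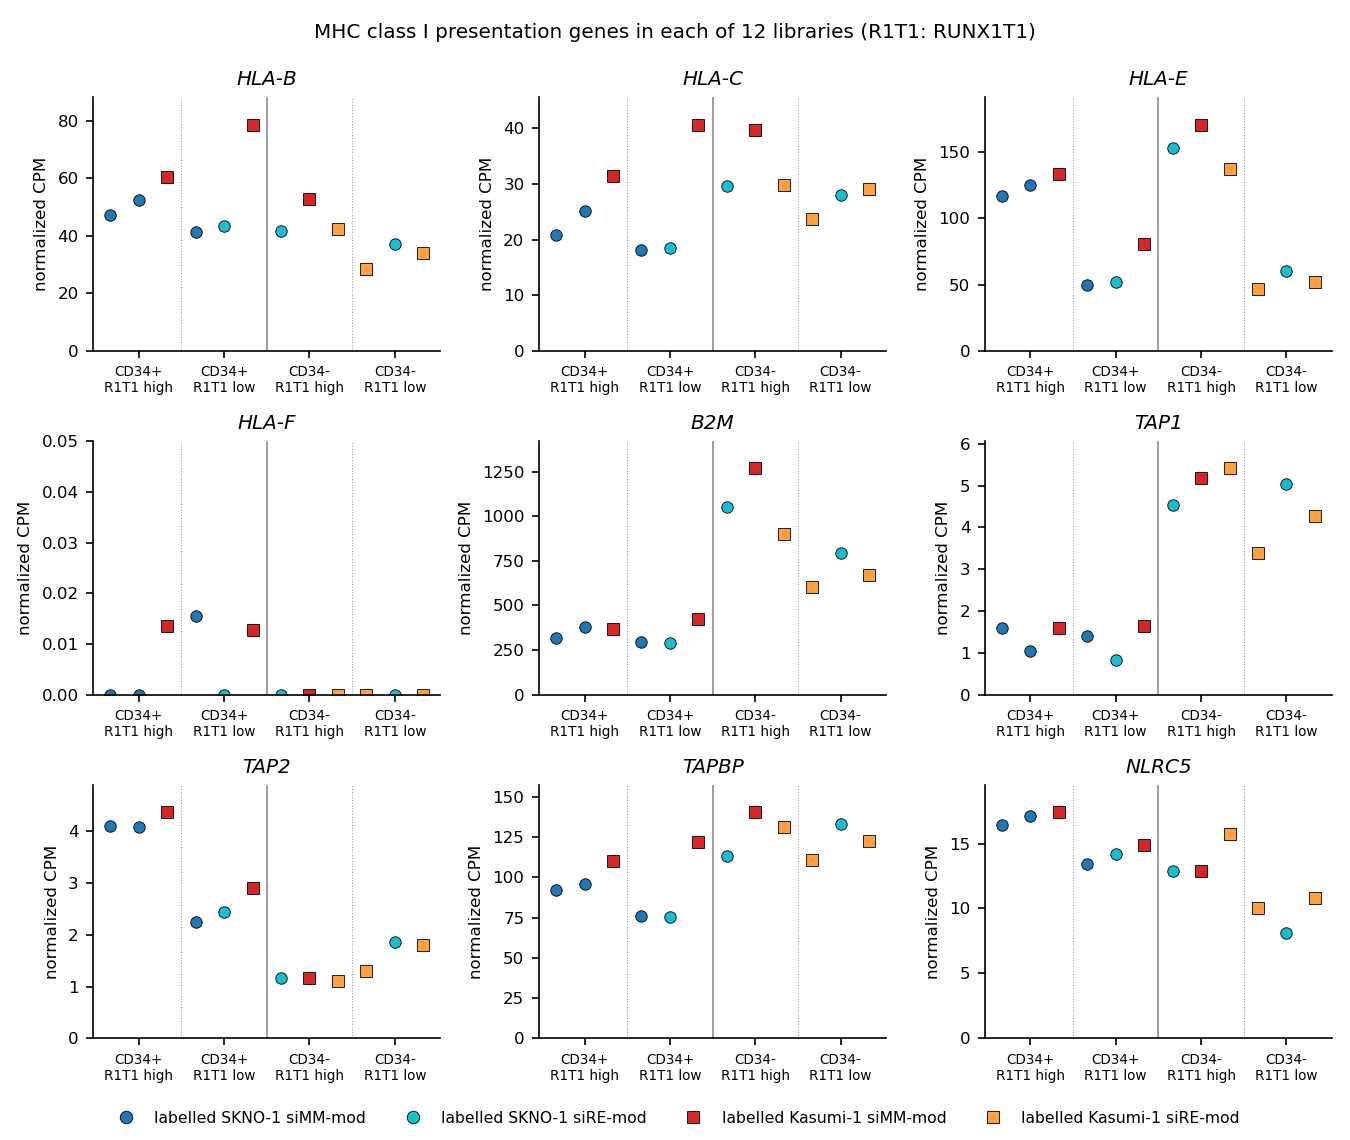
Normalized CPM of the 9 genes in each of the 12 libraries, on linear axes from 0. Each point is 1 library, coloured and shaped by its label and placed in 4 sets by CD34 (CD34+ for expressing, CD34- for silent) and RUNX1T1 (R1T1); the points of a set stand in order of falling RUNX1T1. B2M and TAP1 are higher in all 6 CD34-silent libraries, TAP2 is lower in them, and HLA-E is higher in the RUNX1T1-high libraries of both CD34 sets.

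Across the CD34 sets, the light chain and TAP1 were higher and TAP2 was lower in the CD34-silent libraries, without overlap. B2M was at 316.9, 380.6 and 367.4 CPM in the CD34-expressing, RUNX1T1-high libraries, in the order of labels given above, and at 293.0, 290.6 and 423.7 CPM in the RUNX1T1-low ones. Levels in the CD34-silent libraries were 1053.0, 1268.7 and 898.1 CPM where RUNX1T1 was high and at 605.7, 795.4 and 672.1 CPM where it was low. All 6 CD34-silent libraries thus lay above all 6 CD34-expressing ones. The sums of the myeloid and B cell markers given above were lower in the same 6 libraries, though CD33, SPI1, CEBPA and CD79A overlapped. The part of these markers in the differences of B2M, TAP1 and TAP2 was not tested.

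TAP1, which encodes the first subunit of the peptide pump, was at 1.58, 1.05 and 1.6 CPM in the CD34-expressing, RUNX1T1-high libraries and at 1.41, 0.833 and 1.64 CPM in the RUNX1T1-low ones. Its CD34-silent values were 4.53, 5.17 and 5.41 CPM where RUNX1T1 was high and at 3.39, 5.04 and 4.26 CPM where it was low. The CD34 sets did not overlap, while RUNX1T1-high and RUNX1T1-low libraries overlapped within each of them. The counts behind these values were 56 to 774 reads per library. TAP1 shares 577 bases, 12.0% of its counted exons, with PSMB8-AS1 on the opposite strand, which itself had 29 to 158 counts, and since no source gives the strand setting, reads of the shared stretch cannot be assigned.

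TAP2, the gene of the second subunit, had the opposite order. It was at 4.10, 4.07 and 4.36 CPM in the CD34-expressing, RUNX1T1-high libraries and at 2.24, 2.44 and 2.90 CPM in the RUNX1T1-low ones. CD34-silent libraries had 1.17, 1.17 and 1.1 CPM where RUNX1T1 was high and at 1.3, 1.86 and 1.81 CPM where it was low. All CD34-silent libraries lay below all CD34-expressing ones. RUNX1T1-high libraries were higher than RUNX1T1-low ones in the CD34-expressing set and lower in the CD34-silent set, in each case without overlap. TAP2 shares 2054 bases, 32.2% of its counted exons, with AL669918.1 on the same strand, which is listed at 0 counts in every library.

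As a ratio of levels per kilobase, TAP1 to TAP2 was 0.344 to 0.836 in the CD34-expressing libraries and 3.12 to 6.56 in the CD34-silent ones. Per kilobase of counted exon, the lower of the pair of transporter genes was therefore TAP1 in every CD34-expressing library and TAP2 in every CD34-silent one. Within the CD34-silent libraries the ratio was 5.14 to 6.56 where RUNX1T1 was high and 3.12 to 3.59 where it was low. B2M per kilobase relative to HLA-B, HLA-C and HLA-E summed was 0.774 to 1.27 in the CD34-expressing libraries and 2.03 to 2.98 in the CD34-silent ones, and was higher in the RUNX1T1-low libraries of each CD34 set (1.00 to 1.27 against 0.774 to 0.894, and 2.73 to 2.98 against 2.03 to 2.28). A ratio within a library does not depend on its scaling, but it depends on the lengths used. These cover all counted exons of a gene: 6079 bases for B2M, 3051 for HLA-B, 2507 for HLA-C, 2922 for HLA-E, 4805 for TAP1 and 6380 for TAP2. The lengths of the transcripts present were not measured, so a ratio above or below 1 does not show which transcript was the more abundant.

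**Figure D2:**
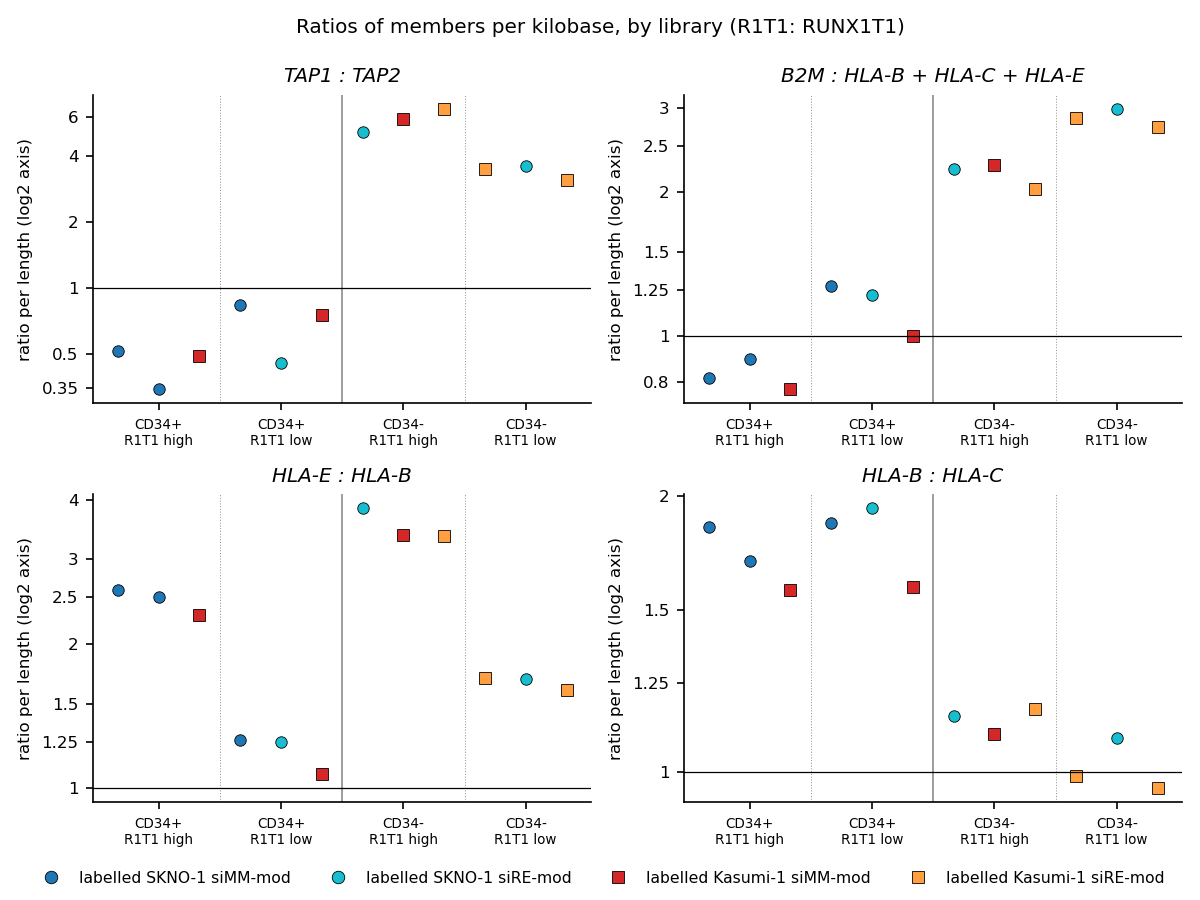
Ratios of members per kilobase in each of the 12 libraries, on log2 axes, with a line at equal levels per kilobase of counted exon. The ratio of TAP1 to TAP2 and that of B2M to the heavy chains are higher in all 6 CD34-silent libraries, the ratio of HLA-B to HLA-C is lower in them, and the ratio of HLA-E to HLA-B separates all 6 RUNX1T1-high from all 6 RUNX1T1-low libraries.

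HLA-E, the non-classical heavy chain that presents signal peptides to the NKG2A receptor of NK cells, was separated by RUNX1T1 in both CD34 sets. It was at 116.9, 125.2 and 133.4 CPM in the CD34-expressing, RUNX1T1-high libraries and at 49.9, 51.8 and 80.4 CPM in the RUNX1T1-low ones. Where CD34 was silent it was at 153.0, 171.0 and 137.0 CPM where RUNX1T1 was high and at 46.6, 60.1 and 52.0 CPM where it was low. All 6 RUNX1T1-high libraries lay above all 6 RUNX1T1-low ones, while the RUNX1T1-low libraries of both CD34 sets overlapped and the CD34-silent ones were higher among the RUNX1T1-high. NKG7 divided the libraries in the same way in the opposite order, and its part in the difference of HLA-E was not tested. Per kilobase, HLA-E to HLA-B was 2.30 to 2.59 and 1.07 to 1.26 in the RUNX1T1-high and RUNX1T1-low libraries of the CD34-expressing set, and 3.36 to 3.84 and 1.6 to 1.7 in those of the CD34-silent set.

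HLA-B, a classical heavy chain that presents peptides to CD8 T cells, was at 47.2, 52.4 and 60.6 CPM in the CD34-expressing, RUNX1T1-high libraries and at 41.3, 43.3 and 78.8 CPM in the RUNX1T1-low ones. In the CD34-silent libraries it was at 41.6, 53.0 and 42.5 CPM where RUNX1T1 was high and at 28.6, 37.2 and 34.0 CPM where it was low. The RUNX1T1-high and RUNX1T1-low libraries did not overlap in the CD34-silent set and overlapped in the CD34-expressing set. The highest of the 12 values came from the library labelled Kasumi-1 siMM-mod 2.

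HLA-C, the classical heavy chain that is also a main ligand of NK cell receptors of the KIR family, was at 20.9, 25.2 and 31.5 CPM in the CD34-expressing, RUNX1T1-high libraries and at 18.2, 18.4 and 40.7 CPM in the RUNX1T1-low ones. Where CD34 was silent, HLA-C was at 29.6, 39.7 and 29.8 CPM where RUNX1T1 was high and at 23.7, 28.1 and 29.1 CPM where it was low, which leaves a narrow gap that closes under other scalings. HLA-B to HLA-C per kilobase was 1.58 to 1.94 in the CD34-expressing libraries and 0.96 to 1.17 in the CD34-silent ones. Heavy chain genes are near-identical over long stretches and differ between people, and the reads were aligned to a single reference, so that reads can be lost or can pass between them. The counted model of HLA-B also holds an exon of 35 bases, chr6:31269491-31269525 in the build of the files, that lies within an exon of HLA-C. HLA-B further shares 542 bases, 17.8% of its counted exons, with AL671883.2 on the opposite strand, which had 0 to 1 counts.

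TAPBP was at 92.4, 96.1 and 109.9 CPM in the CD34-expressing, RUNX1T1-high libraries and at 76.0, 75.1 and 121.8 CPM in the RUNX1T1-low ones. The CD34-silent libraries had 113.0, 140.4 and 131.1 CPM where RUNX1T1 was high and at 110.7, 133.0 and 122.7 CPM where it was low. The CD34 sets overlapped only through the library labelled Kasumi-1 siMM-mod 2, and the RUNX1T1 sets overlapped within each of them.

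NLRC5 was at 16.4, 17.1 and 17.4 CPM in the CD34-expressing, RUNX1T1-high libraries and at 13.4, 14.2 and 14.9 CPM in the RUNX1T1-low ones. In the CD34-silent libraries it was at 12.9, 12.9 and 15.7 CPM where RUNX1T1 was high and at 10.0, 8.15 and 10.8 CPM where it was low. The class I transactivator was thus higher in the RUNX1T1-high libraries of both CD34 sets, by a smaller margin than HLA-E, and the CD34 sets overlapped.

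**Figure D3:**
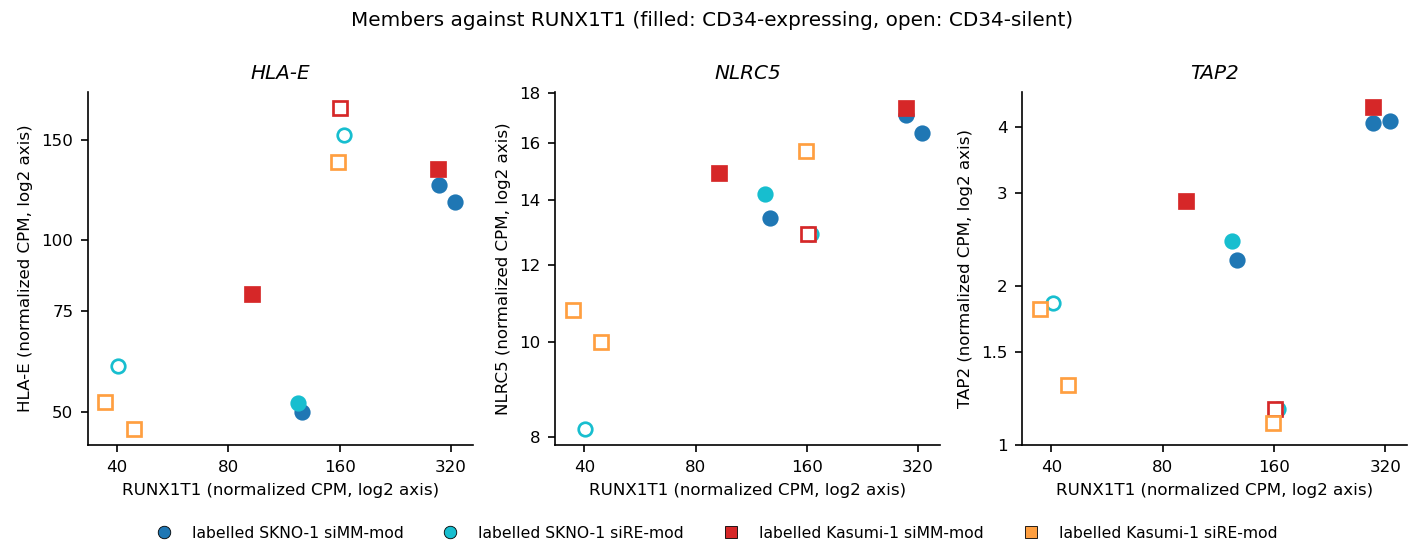
HLA-E, NLRC5 and TAP2 against RUNX1T1, each in normalized CPM on log2 axes, with 1 point per library, filled for CD34-expressing and open for CD34-silent libraries. HLA-E and NLRC5 are higher in the RUNX1T1-high libraries of both CD34 sets, whereas TAP2 is higher in the RUNX1T1-high libraries of the CD34-expressing set and lower in those of the CD34-silent set.

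These counts were set beside those over all 15863 genes. Of the 8 members that passed, 2 (B2M and TAP1) were higher in the CD34-silent libraries without overlap, as were 17.5% of all genes, and 1 (TAP2) was lower, as were 15.6%. In the CD34-expressing set, 3 members (HLA-E, TAP2 and NLRC5) were higher in the RUNX1T1-high libraries against 20.1% of all genes, and 0 were lower against 18.1%. In the CD34-silent set, 5 members (HLA-B, HLA-C, HLA-E, B2M and NLRC5) were higher in the RUNX1T1-high libraries against 21.6% of all genes, and 1 (TAP2) was lower against 21.7%. The shares for the CD34 sets are near the background, so the counts of members are no result about the pathway there, and no test was made of the others. HLA-E and NLRC5 were the members higher in the RUNX1T1-high libraries of both CD34 sets. The share of all genes separated in the same direction in both sets was not counted. Neither these 2 members nor the other pathway genes below with such a pattern can thus be set against a background.

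The library labelled Kasumi-1 siMM-mod 2 stood apart within its set, with the highest MPO (22611.0 CPM) and ELANE (1970.5 CPM) of all 12 libraries, genes of neutrophil granule proteins, and with the highest HLA-B and HLA-C. Without it, 7 of the 8 members, all but TAP1, were higher in the RUNX1T1-high libraries of the CD34-expressing set, where the same held for 37.6% of all genes, and 0 were lower, against 39.2%. Across the CD34 sets without it, 3 members (B2M, TAP1 and TAPBP) were higher in the CD34-silent libraries against 18.9% of all genes, and 1 (TAP2) was lower against 16.7%. That library was chosen for this after its values were seen, and fewer libraries make a gap between groups more common in all genes.

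The 37 other genes of the pathway that were followed include 34 that passed the minimum of reads. Of these, 9 were higher and 5 were lower in the CD34-silent libraries without overlap, beside the shares of all genes given above. In the RUNX1T1-high libraries, 9 were higher and 9 lower in the CD34-expressing set, against 20.1% and 18.1% of all genes. In the CD34-silent set 8 were higher and 8 lower, against 21.6% and 21.7%.

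The immunoproteasome replaces catalytic subunits of the constitutive proteasome and favours peptides that suit class I grooves. Of the 5 genes of the immunoproteasome and its PA28 activator, the 3 catalytic subunits were higher in the CD34-silent libraries without overlap, beside 17.5% of all genes, while PSME1 and PSME2 overlapped. PSMB8 was at 5.08 to 10.3 CPM in the CD34-expressing and 11.4 to 17 CPM in the CD34-silent libraries. PSMB9, the neighbour of TAP1, was at 0.125 to 0.735 and 0.771 to 2.32 CPM, a narrow gap, and PSMB10 at 9.98 to 15.6 and 18.3 to 31.1 CPM. None of the 3 constitutive counterparts PSMB5, PSMB6 and PSMB7 was separated by CD34. PSME1, a subunit of the PA28 proteasome activator, was higher in the RUNX1T1-high libraries of both CD34 sets, at 197.7 to 276.0 against 106.4 to 154.9 CPM and at 222.5 to 331.6 against 154.1 to 195.4 CPM.

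Of the trimming enzymes of the endoplasmic reticulum, ERAP2 was at 25.8 to 29.2 CPM in the CD34-expressing, RUNX1T1-high libraries and 18 to 20.7 CPM in the RUNX1T1-low ones. In the CD34-silent libraries it was at 102.3 to 111.3 CPM where RUNX1T1 was high and at 27.9 to 44.8 CPM where it was low. ERAP2 was thus another gene that was higher with RUNX1T1 in both CD34 sets, whereas ERAP1 was separated only in the CD34-silent set (93.6 to 101.0 against 64.7 to 84.3 CPM). TAPBPL, which encodes a peptide editor related to tapasin, was lower in the RUNX1T1-high libraries of both sets, at 3.06 to 4.48 against 4.80 to 5.54 CPM and at 5.5 to 5.53 against 5.55 to 6.02 CPM, the latter a gap of nearly 0. The chaperone gene CALR was higher in the CD34-expressing, RUNX1T1-low libraries (5620.3 to 7900.6 CPM) than in the other 9 (2122.9 to 3444.6 CPM).

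Among the regulators, IRF1, an interferon-induced activator of class I genes, was higher in the RUNX1T1-high libraries of the CD34-expressing set (12.2 to 13.0 against 8.79 to 9.90 CPM) and lower in those of the CD34-silent set (9.85 to 10.6 against 15.1 to 19.9 CPM). RFX5, the DNA-binding subunit of the RFX complex, was lower in the RUNX1T1-high libraries of both sets, at 65.4 to 72.2 against 77.3 to 91.8 CPM and at 62.0 to 70.2 against 85.8 to 95.8 CPM. NFYA, a subunit of NF-Y, was higher in them in both sets, at 112.2 to 120.7 against 85.4 to 95.7 CPM and at 56.9 to 63.3 against 49.2 to 55.0 CPM. Of the 10 regulators listed, 3 were higher and 3 lower in the RUNX1T1-high libraries of the CD34-expressing set, against 20.1% and 18.1% of all genes. In those of the CD34-silent set 1 was higher and 4 lower, against 21.6% and 21.7%. No test was made of these counts, which are no result about the regulators as a group. By CD34, RFXAP, another RFX subunit, was higher in the CD34-silent libraries (13.6 to 21.0 against 5.85 to 8.73 CPM), as was NFYC (49.6 to 59.5 against 32.4 to 44.1 CPM), while NFYA was lower (49.2 to 63.3 against 85.4 to 120.7 CPM).

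Several other heavy chain and class I-like genes were also separated by CD34. Of all genes, 17.5% were higher and 15.6% lower in the CD34-silent libraries in this way. HLA-H, a class I pseudogene, was at 2.31 to 7.38 CPM in the CD34-expressing and 21.8 to 41.3 CPM in the CD34-silent libraries. Its sequence is close to that of the expressed heavy chains, so its reads are uncertain. HLA-G, the heavy chain known from placenta, was at 0 to 0.122 and 0.730 to 1.78 CPM. MICA, a stress ligand of the NKG2D receptor, was at 3.7 to 5.24 and 5.31 to 6.62 CPM, without overlap, while MICB was at 10.9 to 16.3 and 13.0 to 22.3 CPM with overlap. In opposite order, the NKG2D ligand genes ULBP2 (0.565 to 2.23 and 0.0205 to 0.123 CPM) and ULBP3 (1.37 to 2.79 and 0.0313 to 0.0742 CPM) and the Fc receptor gene FCGRT (85.8 to 143.5 and 10.7 to 32.7 CPM) were lower in the CD34-silent libraries. The class I-like gene MR1 was higher in them (17.8 to 28.5 against 6.26 to 11.2 CPM), while ULBP1, another NKG2D ligand gene, overlapped (0.761 to 2.44 and 0.688 to 2.87 CPM). PSME1, CALR, RFXAP, NFYA, NFYC, HLA-G, HLA-H, MR1, ULBP1, ULBP2, ULBP3 and FCGRT were chosen for naming after their values were seen.

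**Figure D4:**
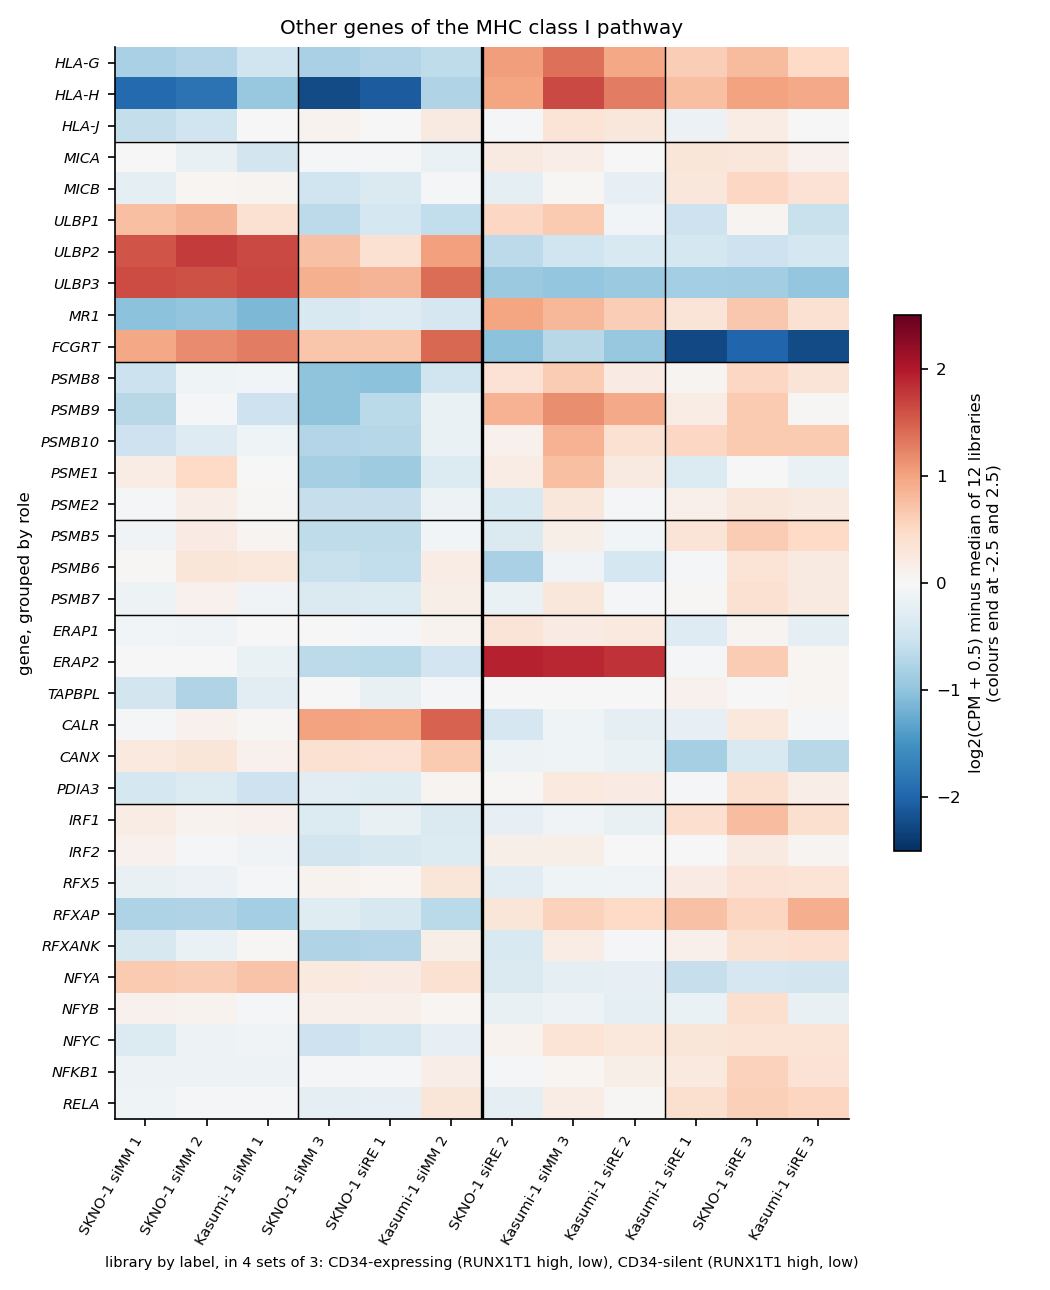
Heat map of the 34 other pathway genes that passed the minimum of reads, in rows grouped by role, over the 12 libraries in columns. Colour is log2 of CPM plus 0.5 minus the median of the gene over the libraries, and lines divide the 4 sets. HLA-H, PSMB8, PSMB9 and PSMB10 are higher in the 6 CD34-silent libraries on the right, FCGRT, ULBP2 and ULBP3 are lower in them, and ERAP2 is highest in the 3 CD34-silent, RUNX1T1-high libraries.

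By label, the comparison of siRE-mod with siMM-mod asks what depletion of RUNX1/ETO does to these genes, but each labelled group holds libraries of more than 1 set. In Kasumi-1, HLA-B and HLA-C were lower in all 3 libraries labelled siRE-mod than in all 3 labelled siMM-mod, and none of the other members was separated. HLA-B was at 60.6, 78.8 and 53.0 CPM under siMM-mod and at 28.6, 42.5 and 34.0 CPM under siRE-mod, a log2 fold change of −0.87 (SE 0.22, adjusted p = 0.252 by the edgeR quasi-likelihood test with Benjamini-Hochberg adjustment over 13608 genes). HLA-C was at 31.5, 40.7 and 39.7 CPM and at 23.7, 29.8 and 29.1 CPM, a log2 fold change of −0.43 (SE 0.17, adjusted p = 0.261). Neither passed the threshold of 0.05. These 2 members of 8 stand against 11.1% of all genes that were lower without overlap, and 0 members were higher against 10.5%. With the CPM as deposited, HLA-B alone was lower, against 3.6% of all genes, and TAPBP was higher, against 31.0%.

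In SKNO-1, no member was separated by label in either direction, against 5.93% of all genes that were higher and 6.01% that were lower without overlap in the libraries labelled siRE-mod. B2M had a log2 fold change of 1.1 (SE 0.44, adjusted p = 0.466 by edgeR over 13628 genes) and TAP1 of 1.35 (SE 0.69, adjusted p = 0.501). The library labelled siRE-mod 1, which is CD34-expressing, had 290.6 CPM of B2M and lay below all 3 libraries labelled siMM-mod (293.0 to 380.6 CPM), while siRE-mod 2 and 3 lay far above them.

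TAP2 had log2 fold changes of −1.01 (SE 0.53) in Kasumi-1 and −0.93 (SE 0.48) in SKNO-1, with adjusted p = 0.351 and 0.504 by edgeR, and NLRC5 of −0.30 (SE 0.24) and −0.41 (SE 0.29). The log2 fold changes of HLA-E were −0.70 (SE 0.50) and −0.14 (SE 0.51), and those of TAPBP −0.02 (SE 0.13) and 0.27 (SE 0.24). B2M in Kasumi-1 had 0.09 (SE 0.50) and TAP1 0.65 (SE 0.53), and in SKNO-1 HLA-B had −0.21 (SE 0.18) and HLA-C 0.24 (SE 0.25), all on the log2 scale. The median log2 fold change of the 8 members was −0.37 in Kasumi-1, where that of all genes was 0.02, and 0.05 in SKNO-1, where that of all genes was 0.03. The standard errors of B2M, HLA-E, TAP1 and TAP2 were the widest of the members in both lines.

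Across all genes, edgeR called 0 genes at an adjusted p under 0.05 in either line or for the difference between the lines (0.0% of 13608, 13628 and 15863 genes), and 0 of the 8 members in each. An unadjusted p under 0.05 was found for 17.9% of the genes of Kasumi-1 (2435, HLA-B and HLA-C among them) and for 10.7% of those of SKNO-1 (1455, B2M among them). The difference between the lines had 106 such genes, with HLA-B (log2 difference of SKNO-1 minus Kasumi-1 of 0.66, SE 0.27) and HLA-C (0.68, SE 0.30) among them, both at an adjusted p of 1.0 by edgeR. DESeq2 on the same counts made 1163 calls for Kasumi-1 (8.55%) and 372 for SKNO-1 (2.73%), with 127 for their difference (0.801%). Of the members it called HLA-B alone, in Kasumi-1, with a log2 fold change of −0.89 (SE 0.26, adjusted p = 0.0153). Of the other pathway genes, DESeq2 called FCGRT in Kasumi-1 and HLA-H in SKNO-1, and edgeR called 0 of the 31 tested in Kasumi-1 and 0 of the 30 in SKNO-1.

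**Figure D5:**
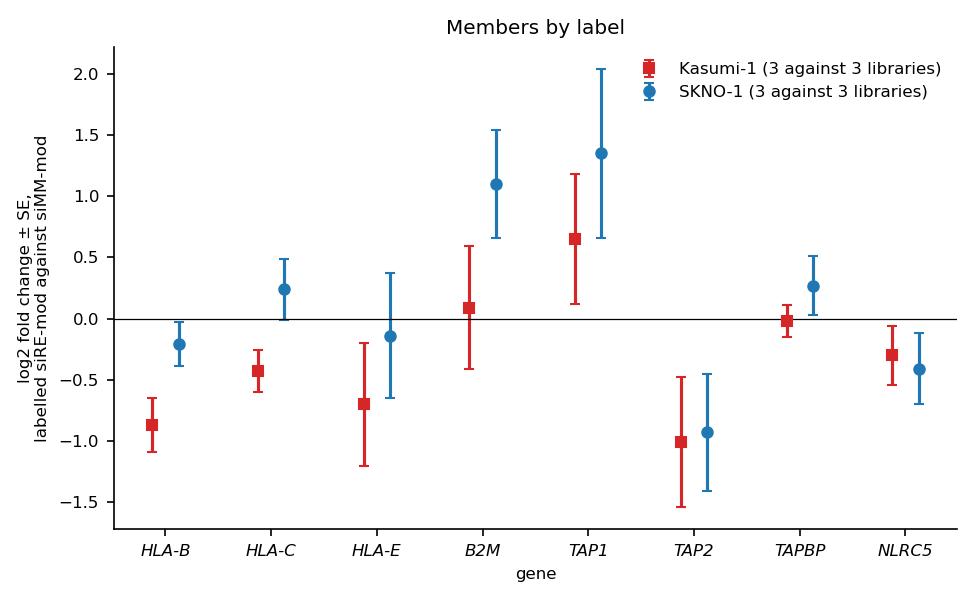
Log2 fold change of the 8 members by label, siRE-mod against siMM-mod, as points with standard errors from edgeR, for 3 against 3 libraries in each line. HLA-B in Kasumi-1 (−0.87) lies farthest from 0 in units of its error, and the errors of HLA-E, B2M, TAP1 and TAP2 span 0.44 to 0.69 on the log2 scale.

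A single library in each line decided the calls. When Kasumi-1 siMM-mod 3, the CD34-silent library of its labelled group, was left out, edgeR called 16.5% of 13200 genes as raised and 15.7% as lowered. The members called were then TAP1 (log2 fold change 1.43, SE 0.29, adjusted p = 0.0140) and B2M (0.87, SE 0.22, adjusted p = 0.0284) as raised, and HLA-B (−0.99, SE 0.21, adjusted p = 0.0167) and TAP2 (−1.37, SE 0.32, adjusted p = 0.0236) as lowered. When SKNO-1 siRE-mod 1, the CD34-expressing library of its labelled group, was left out, 10.8% of 13119 genes were raised and 8.55% lowered, with B2M (1.46, SE 0.22, adjusted p = 0.00726) and TAP1 (1.80, SE 0.38, adjusted p = 0.0224) as the members called. Of the other pathway genes, 8 of 29 tested were then called in Kasumi-1 and 7 of 30 in SKNO-1, with MR1, HLA-H, RFXAP and PSMB10 raised and FCGRT and NFYA lowered in both. Each of these fits compares CD34-expressing with CD34-silent libraries only, so that the siRNA label and the CD34 set cannot be told apart in it.

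By the likeness of their pattern over the 12 libraries, the genes closest to the mean standardized log2 CPM of the 8 members were RPS2P46 (r = 0.975), DHRS4 (0.974), SHMT2 (0.969), PCBP2 (0.967) and AKR7A2 (0.952), among 7618 genes with a mean of at least 16 CPM. HLA-C (r = 0.882) and HLA-E (0.837) followed that mean most closely among the members and TAP2 did not (−0.044). With each CD34 set centred on its own mean, the closest genes were ACTG1 (0.984), GRINA (0.976), ECH1 (0.973), TIMP2 (0.972) and LGALS9 (0.972). The points of these correlations are libraries that fall into sets and share their scaling, so that the values describe these libraries only.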

How the data were processed

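RNA-seq libraries of Kasumi-1 and SKNO-1, 3 for each line and siRNA label, were read from the tables deposited per library. Per the labels and file headers, the authors trimmed reads (Trim Galore 0.6.5), aligned them to GRCh38 (STAR 2.7.10a) and counted them over exons per gene (Subread 1.6.5 in the processing notes, Rsubread 1.32.4 under R 3.5.1 in the headers). Strand setting and treatment of reads on several genes are not stated. The deposited counts are raw, and the deposited CPM and FPKM values are the same counts scaled by the authors to the library total and to exon length. Deposited CPM served as an alternative scaling, and the 4 in vivo libraries were not used here.

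Genes with at least 600 reads over the libraries of a fit were tested with edgeR 4.0.16 in R 4.3.3 (TMM, glmQLFit with robust estimation, glmQLFTest, Benjamini-Hochberg adjustment over all genes tested, threshold 0.05). DESeq2 1.42.0 was an alternative, as were its size factors, other filters, the replicate block, a joint fit and leaving out each library. Standard errors are the log2 fold change divided by the square root of F. An exact permutation test of 3 libraries against 3 reaches no two-sided p below 0.1 and was not applied to single genes. Sets were divided at the widest gap of sorted log2 CPM of CD34, and then of RUNX1T1. Floors of 3 counts cover counting error only.

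The members, gene lists and the rule for likeness (the 5 genes with the highest Pearson correlation) were chosen with earlier results of these data known. HLA-F was left out of likeness because of its counts. All 9 members are named, with the other pathway genes by list; 2 further genes of these lists are not reported here. The procedure was tested on simulated counts with far less dispersion than the 0.197 to 0.246 of these fits, so that test does not measure their power. Tables and figures used Python 3.11.15, pandas 2.3.3 and matplotlib 3.10.9.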

Additional observations from a re-analysis of the deposited data

How the results depend on the processing

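Leaving out each library moved the count of genes called by edgeR between 0 and 4250 in Kasumi-1 and between 0 and 2535 in SKNO-1, and the members called between 0 and 4 and between 0 and 2, the upper values coming from the fits without Kasumi-1 siMM-mod 3 and without SKNO-1 siRE-mod 1 alone. Both counts stayed at 0 for the interaction of line and siRNA label. DESeq2 called 1163, 372 and 127 genes, with 1 member, HLA-B, in Kasumi-1. Among the log2 fold changes of the members, leaving out libraries turned the sign of B2M (−0.20, −0.15 and −0.08 among a range of −0.20 to 0.87) and TAPBP (−0.10 to 0.07, with 0.04) in Kasumi-1 and of HLA-E (−0.79 to 0.13, with 0.01, 0.08 and 0.11) in SKNO-1. In that interaction it turned HLA-E (−0.09 to 1.24), TAP1 (−0.09 to 1.18), TAP2 (−0.39 to 0.40, with −0.07, −0.16 and −0.20), NLRC5 (−0.27 to 0.12, with 0.10) and RUNX1T1 (−0.54 to 0.97, with 0.04, 0.13, 0.24, 0.31 and 0.39). The cause was not tested. TAP2 also turned to −0.02 with no filter on low counts.

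The replicate numbers do not pair the samples: same-numbered libraries had deviations that correlated by −0.309 to −0.00619 in Kasumi-1 and by −0.311 to 0.0101 in SKNO-1. With the replicate number as a block, edgeR called 0 genes and 0 members in each comparison, and the differences of TAP2 and RUNX1T1 between the lines turned to −0.06 and 0.14.

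With the CPM as deposited, the median of all genes was shifted by 0.208 on the log2 scale between the CD34 sets and by −0.148 between RUNX1T1-high and RUNX1T1-low libraries of the CD34-expressing set. TAPBP then joined B2M and TAP1 as members higher in the CD34-silent libraries, where 21.6% of all genes were. HLA-C no longer separated the RUNX1T1 sets of the CD34-silent libraries under the deposited or the size-factor scaling, which leaves 4 members higher there, against 15.3% of all genes as deposited and 21.7% with size factors, with TAP2 lower against 31.1% and 21.0%. By label in Kasumi-1, the CPM as deposited left HLA-B alone lower, against 3.6% of all genes, and TAPBP higher, against 31.0%. An alternative added after the values were seen, without Kasumi-1 siMM-mod 2, gave 7 members higher in the RUNX1T1-high libraries of the CD34-expressing set in place of 3. Values that kept direction and side of the threshold numbered 191 of 199 over the other settings and 234 of 268 over the fits without 1 library. HLA-F (3 reads in all), TAP2 (2409) and TAP1 (3796) had the fewest reads of the members. HLA-F shares 15.6%, 12.4% and 5.96% of its counted exons with AL645939.1, HLA-F-AS1 and RPL23AP1 on the opposite strand, and the cause of its low count was not tested.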
